A study of Homo sapiens with 9 samples.

Results

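The Notch genes examined here are 10 transcripts of the Notch signalling pathway in 143B cells, an established human osteosarcoma line: the ligands JAG1 and JAG2, the receptors NOTCH1, NOTCH2 and NOTCH3, the nuclear factors RBPJ and MAML1, and the target genes HES1, HEY1 and NRARP. They were chosen by symbol, through the Ensembl identifiers of the deposited gene table, and all 10 were found among its 36810 genes. The study sequenced polyadenylated RNA in 9 libraries, 3 from control cells at 0 h, 3 from cells after 24 h with XD23 and 3 from cells after 48 h with XD23, at 0.5 µM. XD23 is a compound given by code name, and the series title concerns DKK1 and β-catenin signalling. All groups are the same cell line. With no vehicle or time-matched untreated cells in the labels, an effect of XD23 and one of time in culture cannot be told apart. Separate cultures behind the 3 libraries are not stated, so the p-values measure only the spread between these libraries, which may be technical.

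Notch receptors are single-pass membrane proteins that are activated by ligands on neighbouring cells. Ligand binding is followed by cleavage of the receptor, first by an ADAM protease and then by γ-secretase, which frees the intracellular domain. That domain enters the nucleus, joins the DNA-binding protein RBPJ and a Mastermind coactivator such as MAML1, and switches on genes of the HES and HEY families and NRARP. In the skeleton, Notch signalling is known for restraining osteoblast differentiation.

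Depth was 18341542 to 22901830 fragments a library. Between 12910 and 13345 genes a library reached 1 FPKM, the unit used throughout, which scales fragments to gene length and to the library total. Of the markers fixed for mesenchymal and osteoblast cells, VIM stood at 297 to 389 FPKM, CD44 at 52.7 to 56.9, SPARC at 27.6 to 43.3, TWIST1 at 5.34 to 6.91 and RUNX2 at 4.06 to 6.61, while the osteoblast products COL1A1, COL1A2 and ALPL stayed under 1 FPKM in every library. SPARC and RUNX2 were called lower at 48 h against 0 h (log2 fold changes -0.56 and -0.50). Of the blood and endothelial markers, PTPRC, CD14, CDH5 and VWF were at most 0.176 FPKM. PECAM1, below the test filter, stood at 0.354 to 0.437 FPKM in control, at 0.215 to 0.28 FPKM at 24 h and at 0.611 to 0.699 FPKM at 48 h, without overlap, on 36 to 124 fragments. Groups did not overlap for 50.4% of all genes tested at 48 h against 0 h. The share was 46.1% at 48 h against 24 h and 13.2% at 24 h against 0 h. Of the epithelial markers, KRT5 and KRT20 were at most 0.0477 FPKM. EPCAM stood at 2.5 to 2.98 FPKM at 48 h and at 3.52 to 4.29 FPKM in control, and was called lower at 48 h against 0 h (-0.38 ± 0.10, limma, adjusted p = 0.0186). The part of these marker changes in the results below was not tested. The third 24 h library stood apart: against the other libraries of its group, genes over 8 kb of exon had a median deviation of -0.15 on the log2 scale and genes under 2 kb one of 0.08. In the other 8 libraries these medians lay between -0.05 and 0.09. Without it, JAG1 (0.70), HES1 (0.82), NRARP (-0.60) and RBPJ (0.14) were still called at 48 h against 24 h, and the 8 tested Notch genes lay between -0.17 and 0.07 at 24 h against 0 h, with none called. NOTCH1 and NOTCH2 are given with and without it below, in the comparisons named there. NOTCH3, below the test filter, is given only with it.

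The promoters of the 3 genes called below are shown first because 2 of the genes rose and 1 fell, and because RBPJ is the DNA-binding factor of the pathway. Each is the 250 bases before the annotated start, from RefSeq on GRCh38.p14, written 5′ to 3′ on the strand of the gene, and capitals mark the RBPJ core motif TGGGAA, searched on both strands. HES1 lies on the plus strand (chr3:194135898-194136147), NRARP on the minus strand (chr9:137302272-137302521) and JAG1 on the minus strand (chr20:10674000-10674249).
HES1: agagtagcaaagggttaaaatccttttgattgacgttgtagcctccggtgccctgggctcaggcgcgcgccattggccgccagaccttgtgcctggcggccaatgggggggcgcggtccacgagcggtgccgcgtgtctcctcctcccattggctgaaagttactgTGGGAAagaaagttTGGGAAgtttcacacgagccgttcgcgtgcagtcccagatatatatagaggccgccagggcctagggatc
NRARP: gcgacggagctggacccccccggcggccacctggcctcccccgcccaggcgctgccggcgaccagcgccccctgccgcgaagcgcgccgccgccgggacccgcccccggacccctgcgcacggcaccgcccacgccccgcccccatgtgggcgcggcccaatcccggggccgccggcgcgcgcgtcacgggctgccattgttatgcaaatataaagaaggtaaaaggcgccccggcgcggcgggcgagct
JAG1: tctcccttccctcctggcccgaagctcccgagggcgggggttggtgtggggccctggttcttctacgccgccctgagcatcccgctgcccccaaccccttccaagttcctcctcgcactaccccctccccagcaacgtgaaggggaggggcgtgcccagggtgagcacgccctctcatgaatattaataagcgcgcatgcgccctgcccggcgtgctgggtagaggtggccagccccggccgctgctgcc
In HES1 the core motif stood at 2 positions, starting 84 and 70 bases before the start, both on the strand of the gene. Among 35116 RefSeq promoters, 20.8% held at least 1 copy in the same window and 2.9% held 2 or more. The windows of NRARP and JAG1 held no copy, which says only that these letters are not in these 250 bases. The HES1 window also held 3 copies of the N-box CACNAG, the motif bound by HES proteins. They started 165, 132 and 58 bases before the start, the first on the opposite strand. Among the same promoters, 32.0% held at least 1 copy and 6.32% held 2 or more. No N-box copy overlapped a core copy. RefSeq promoters were matched for 9 of the 10 genes; HEY1 was not matched. Of the other 6 matched genes only RBPJ, which has 5 RefSeq promoters, held the core, with 2 copies in 1 of them, 115 and 72 bases before the start. The first of these 2 was part of the longer form CGTGGGAA, found in 0.72% of all promoters and in none of the HES1, NRARP and JAG1 windows. RBPJ was not called at 48 h against 0 h.

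At 48 h, HES1 and JAG1 rose and NRARP fell against control, and the other 5 tested genes were not called. At 24 h none of them was called. Of the 10 genes, 8 reached 1 FPKM in at least 3 libraries and were tested, while JAG2 and NOTCH3 stayed below. Calls rest on limma with log2(FPKM + 1) over all genes tested and an adjusted p under 0.05. Fold changes are on that scale, which understates the changes of low genes. At 48 h against 0 h, 3 of the 8 were called, beside 28.5% of the 13657 genes tested, so the count lies near the background. Of the 8 genes 2 were higher, beside 13.3% of all genes, and 1 was lower, beside 15.2%. The libraries of the groups did not overlap for 7 of the 8, beside 50.4% of all genes, and 4 had an unadjusted p under 0.05, beside 40.1%. Over all genes 1811 were higher and 2080 lower at 48 h than at 0 h, a split of 46.5% higher that became 57.1% higher with median-of-ratios scaling. The median log2 fold change was 0.10 for the 8 genes and -0.02 for all genes tested. At 48 h against 24 h, 4 of the 8 were called, beside 32.3% of all genes, with 3 higher, beside 16%, and 1 lower, beside 16.3%. In that comparison 6 of the 8 did not overlap, beside 46.1% of all genes, and 5 had an unadjusted p under 0.05, beside 43.2%. At 24 h against 0 h, 0 of the 8 were called by limma and 1, HES1, had an unadjusted p under 0.05, beside 7.43% of all genes. Over all genes, 1 (0.00732%) was called, the small RNA pseudogene RNU6-548P, and 1015 passed the unadjusted threshold.

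**Figure D1:**
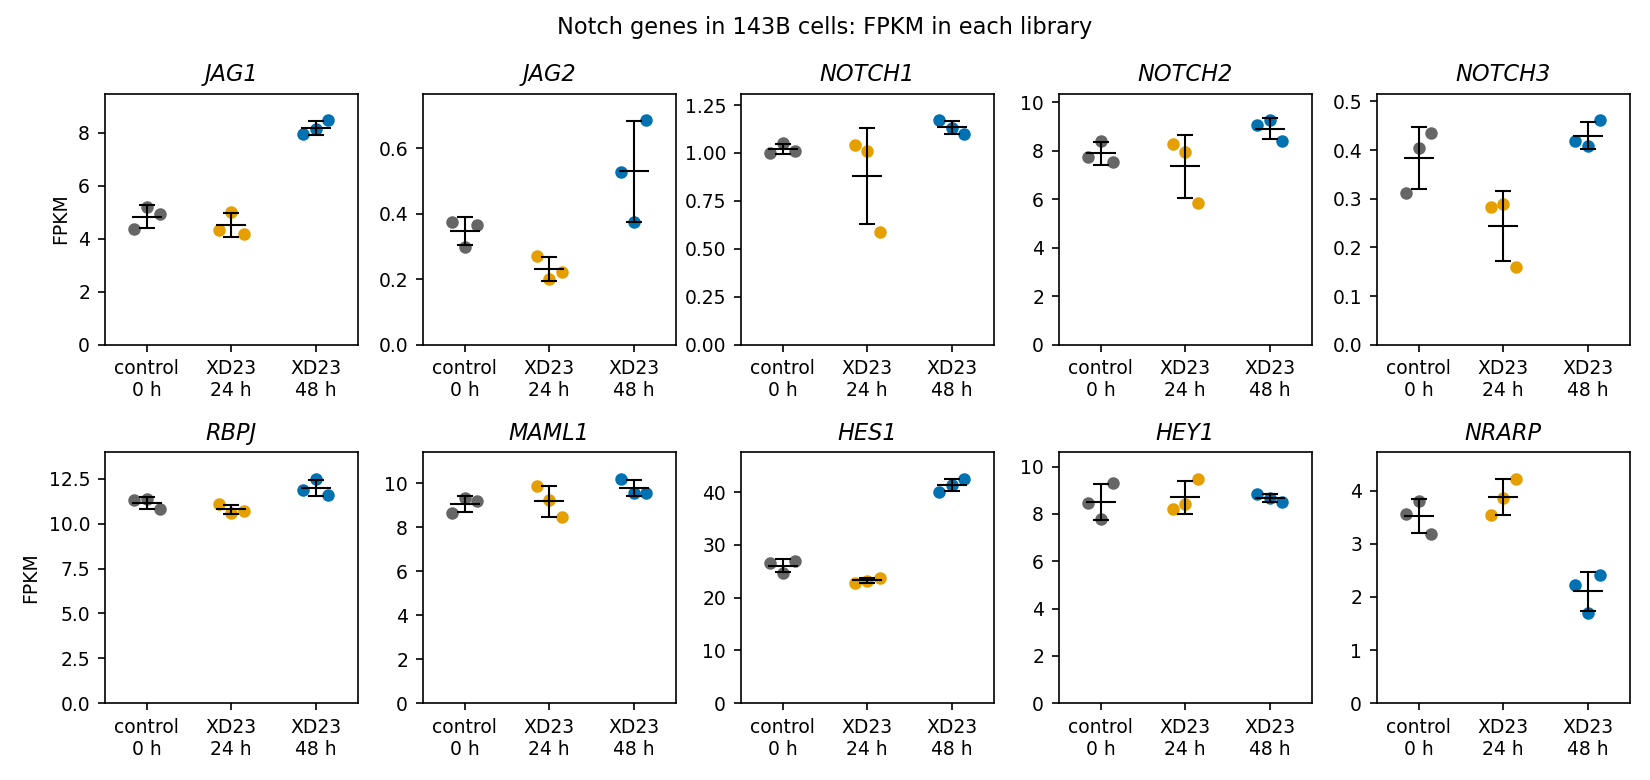
FPKM of the 10 Notch genes in each of the 9 libraries (points), with the mean and SD of the 3 libraries of a group (black bars), for control 0 h, XD23 24 h and XD23 48 h. HES1 and JAG1 lie higher and NRARP lies lower in all 3 libraries at 48 h than in all 6 others, while HEY1 overlaps between the groups.

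JAG1 (ENSG00000101384, chromosome 20, 10637684 to 10673999, minus strand, GRCh38) encodes a ligand that is presented on the surface of the signal-sending cell. It stood at 4.35, 5.19 and 4.93 FPKM in control, at 4.31, 5.02 and 4.17 FPKM at 24 h, and at 7.96, 8.12 and 8.46 FPKM at 48 h. All 3 libraries at 48 h lay above all 6 others, and control and 24 h overlapped. The means were 8.18 ± 0.259 FPKM at 48 h and 4.82 ± 0.43 FPKM in control (SD, n = 3), a ratio of 1.7. The log2 fold change was 0.66 ± 0.07 (SE; limma, adjusted p = 0.000401) at 48 h against 0 h and 0.74 ± 0.07 (adjusted p = 0.000186) at 48 h against 24 h. At 24 h against 0 h it was -0.08 ± 0.07 (adjusted p = 0.826). The values rest on 826 to 1730 fragments per library. In bulk RNA of a culture, a smaller or larger number of cells of a kind and less or more RNA per cell cannot be told apart.

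JAG2, the other Jagged ligand, was far lower and below the test filter. It stood at 0.375, 0.297 and 0.367 FPKM in control, at 0.271, 0.202 and 0.221 FPKM at 24 h, and at 0.527, 0.375 and 0.685 FPKM at 48 h. The 48 h libraries lay above the other 6, though the second of them exceeded the highest control by less than the last digit given. These values rest on 28 to 89 fragments per library. With no filter, over 36810 genes, the log2 fold change was 0.18 ± 0.08 at 48 h against 0 h (limma, adjusted p = 0.297) and 0.31 ± 0.08 at 48 h against 24 h (adjusted p = 0.0638).

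Among the 5 canonical ligands, JAG1 held the highest share of the summed FPKM in every library. Its share was 57.0% ± 0.396 at 48 h and 52.5% ± 1.7 in control (SD, n = 3), and the libraries of these groups did not overlap. DLL1, a Delta-type ligand, came next and rose as well. It stood at 2.64, 2.78 and 3.13 FPKM in control, at 2.55, 2.95 and 2.38 FPKM at 24 h, and at 4.48, 4.56 and 4.63 FPKM at 48 h, with a log2 fold change of 0.53 ± 0.07 at 48 h against 0 h (limma, adjusted p = 0.000969). DLL3, a ligand-like protein known to act inside the signal-receiving cell, was not called (log2 fold change -0.05 ± 0.08, adjusted p = 0.666), and its share was 7.2% ± 0.511 at 48 h and 12.1% ± 0.791 in control. DLL4, the ligand of sprouting endothelium, was at most 0.112 FPKM. The 5 ligands summed to 14.4 ± 0.393 FPKM at 48 h and 9.16 ± 0.61 FPKM in control.

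**Figure D2:**
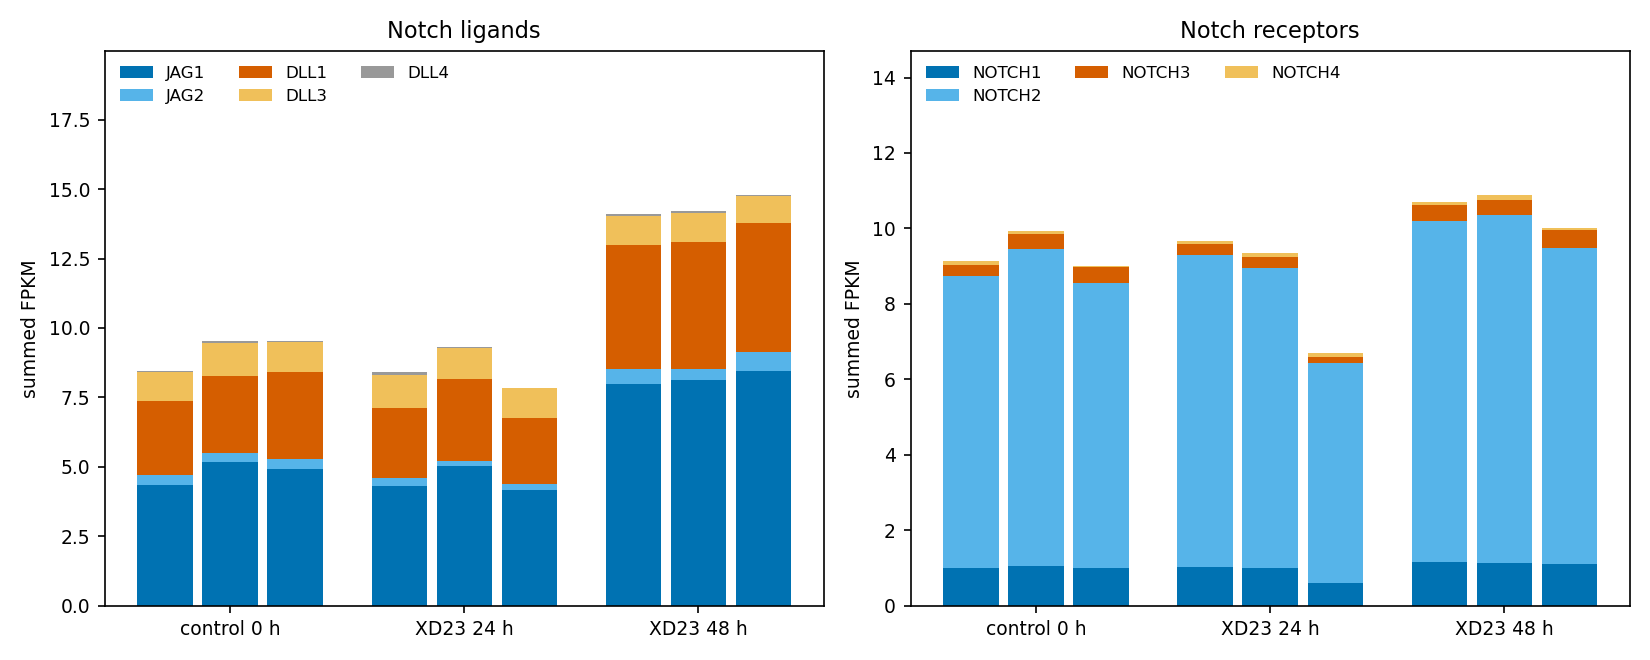
Summed FPKM of 5 Notch ligands (left) and 4 Notch receptors (right) in each of the 9 libraries, stacked by gene, with 3 libraries each for control 0 h, XD23 24 h and XD23 48 h. The ligand sum is 14.1 to 14.8 FPKM at 48 h and 7.86 to 9.52 FPKM in the other 6 libraries, and NOTCH2 forms most of each receptor bar.

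Of the 3 receptors, NOTCH1 and NOTCH2 were tested and neither was called in any comparison, while NOTCH3 lay below the filter. NOTCH2 was the main receptor transcript, at 83.5% to 87.2% of the summed FPKM of the 4 receptors in each library. It stood at 7.73, 8.41 and 7.53 FPKM in control, at 8.27, 7.94 and 5.84 FPKM at 24 h, and at 9.06, 9.25 and 8.41 FPKM at 48 h. The third 24 h library was the lowest of the 9, and the lowest 48 h library exceeded the highest control by less than the last digit given. Its log2 fold change was 0.16 ± 0.11 at 48 h against 0 h (limma, adjusted p = 0.311). Without the third 24 h library, which enters through the shared estimate of the spread, it was 0.16 with an adjusted p of 0.0411. At 48 h against 24 h it was 0.26 ± 0.11 (adjusted p = 0.095), 0.12 (adjusted p = 0.135) without the third 24 h library, and 0.34 (adjusted p = 0.0459) without the first. NOTCH2 is uncertain because the NOTCH2NL genes are near-identical copies of its first exons and the counting could split reads between them. In the table, NOTCH2NLA and NOTCH2NLC reached at most 1.01 and 1.19 FPKM.

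NOTCH1, the best-studied receptor of the family, stood at 1.0, 1.05 and 1.01 FPKM in control, at 1.04, 1.01 and 0.59 FPKM at 24 h, and at 1.17, 1.13 and 1.1 FPKM at 48 h. The 48 h libraries lay above all others, by a small margin, and the third 24 h library lay far below the rest. Its log2 fold change was 0.08 ± 0.11 at 48 h against 0 h (limma, adjusted p = 0.63) and -0.11 ± 0.11 at 24 h against 0 h (adjusted p = 0.835). Without the third 24 h library the change at 24 h was 0, with an adjusted p of 0.993. NOTCH3, known from vascular smooth muscle, stood at 0.312, 0.404 and 0.435 FPKM in control, at 0.282, 0.29 and 0.16 FPKM at 24 h, and at 0.419, 0.408 and 0.461 FPKM at 48 h. It was lower in all 3 libraries at 24 h than in every other library, on 33 to 89 fragments per library. With no filter its log2 fold change was -0.15 ± 0.07 at 24 h against 0 h (limma, adjusted p = 0.84) and 0.05 ± 0.07 at 48 h against 0 h (adjusted p = 0.774). NOTCH4 stayed at or below 0.134 FPKM in every library.

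The 2 nuclear factors were not called at 48 h against 0 h, and RBPJ was called higher at 48 h against 24 h. RBPJ, which binds DNA for the whole pathway, stood at 11.3, 11.4 and 10.8 FPKM in control, at 11.1, 10.6 and 10.7 FPKM at 24 h, and at 11.9, 12.5 and 11.6 FPKM at 48 h. The 48 h libraries lay above the other 6 without overlap. For RBPJ the log2 fold change was 0.10 ± 0.04 at 48 h against 0 h (limma, adjusted p = 0.1; 0.0415 with median-of-ratios scaling) and 0.14 ± 0.04 at 48 h against 24 h (adjusted p = 0.0279). The second of these calls ended without the second 24 h library (adjusted p = 0.086) or without the first (0.0625) or the second (0.102) 48 h library. It also ended after a correction for gene length, where the fold change was 0.07 (adjusted p = 0.273). MAML1, the Mastermind coactivator of the complex, stood at 8.63, 9.34 and 9.18 FPKM in control, at 9.87, 9.22 and 8.46 FPKM at 24 h, and at 10.2, 9.56 and 9.57 FPKM at 48 h. Its 48 h libraries lay above the controls and overlapped those at 24 h. Its log2 fold change was 0.10 ± 0.06 at 48 h against 0 h (limma, adjusted p = 0.227).

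HES1 (ENSG00000114315, chromosome 3, 194136145 to 194138732, plus strand, GRCh38), a basic helix-loop-helix repressor and a common readout of Notch activity, had the highest level of the 10 genes. It stood at 26.6, 24.7 and 26.9 FPKM in control, at 22.8, 23.2 and 23.8 FPKM at 24 h, and at 40.1, 41.4 and 42.5 FPKM at 48 h. All 3 groups were apart: the 24 h libraries lay below all controls, and the 48 h libraries above them. At 48 h the mean was 41.3 ± 1.21 FPKM, against 26.1 ± 1.21 FPKM in control (SD, n = 3), a ratio of 1.58. The log2 fold change was 0.65 ± 0.04 (limma, adjusted p = 4.66e-05) at 48 h against 0 h and 0.80 ± 0.04 (adjusted p = 1.48e-05) at 48 h against 24 h. At 24 h against 0 h it was -0.16 ± 0.04 and was not called (adjusted p = 0.488), and 13.2% of all genes tested had groups that did not overlap in that comparison. The values rest on 975 to 1951 fragments per library. Besides Notch, HES1 is known to respond to other signals, among them growth factor and BMP signalling.

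HEY1, a related repressor of the same family, was not called in any comparison. It stood at 8.46, 7.77 and 9.3 FPKM in control, at 8.2, 8.42 and 9.48 FPKM at 24 h, and at 8.85, 8.67 and 8.49 FPKM at 48 h. The groups overlapped throughout, and the log2 fold change was 0.03 ± 0.07 at 48 h against 0 h (limma, adjusted p = 0.803).

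NRARP (ENSG00000198435, chromosome 9, 137300482 to 137302251, minus strand, GRCh38) encodes a small ankyrin-repeat protein that is induced by Notch and promotes loss of the Notch intracellular domain. It stood at 3.56, 3.81 and 3.18 FPKM in control, at 3.54, 3.87 and 4.22 FPKM at 24 h, and at 2.22, 1.7 and 2.41 FPKM at 48 h. All 3 libraries at 48 h lay below all 6 others, and control and 24 h overlapped. The means were 2.11 ± 0.363 FPKM at 48 h and 3.51 ± 0.317 FPKM in control (SD, n = 3), a ratio of 0.6. The log2 fold change was -0.54 ± 0.10 (limma, adjusted p = 0.00393) at 48 h against 0 h and -0.65 ± 0.10 (adjusted p = 0.00132) at 48 h against 24 h. At 24 h against 0 h it was 0.11 ± 0.10 (adjusted p = 0.825). The values rest on 103 to 244 fragments per library. Within a library, HES1 stood at 18.1, 24.3 and 17.7 times the FPKM of NRARP at 48 h, against 7.48, 6.48 and 8.47 times in control, a ratio formed after both genes had been seen to move.

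**Figure D3:**
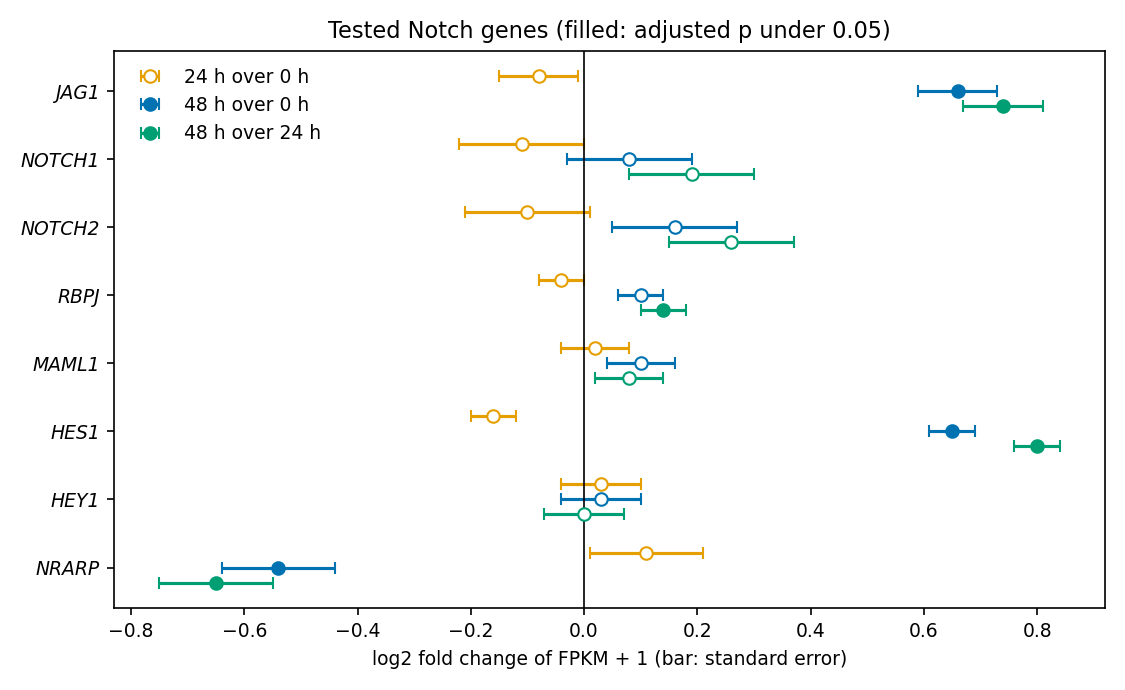
Log2 fold change of FPKM + 1 with its standard error for the 8 tested Notch genes, in the order of their roles, at 24 h over 0 h, 48 h over 0 h and 48 h over 24 h. Filled points were called at an adjusted p under 0.05; JAG1, HES1 and NRARP are filled at 48 h over either earlier time and RBPJ over 24 h only.

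In control cells the order of the mean levels in FPKM was HES1, RBPJ, MAML1, HEY1, NOTCH2, JAG1, NRARP, NOTCH1, NOTCH3 and JAG2. The libraries of MAML1 and HEY1, of HEY1 and NOTCH2, and of NOTCH3 and JAG2 overlapped, so the order within these pairs lies inside their spread. At 48 h JAG1 reached 7.96 to 8.46 FPKM, beside 8.49 to 8.85 for HEY1 and 8.41 to 9.25 for NOTCH2.

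The genes whose profiles lay nearest to those of the called genes were sought among the other 10867 protein-coding genes tested. The measure was the mean absolute difference of the log2 values over the 9 libraries, after each gene's control mean was subtracted. Nearest to JAG1 were TP53INP1, a stress-induced gene (0.036), the glycosyltransferase gene B3GNT5 (0.056) and the phosphodiesterase gene PDE4B (0.057). Nearest to HES1 were the autophagy receptor gene OPTN (0.041), PHLDA1 (0.044) and RFX8, of the RFX transcription factor family (0.05). Nearest to NRARP were HMGN2, a nucleosome-binding protein (0.06), PSAT1, an enzyme of serine synthesis (0.06), and PHF5A, a splicing factor (0.065). HMGN2 and PSAT1 have processed pseudogenes and are uncertain. TP53INP1 had means of 3.06, 2.76 and 5.27 FPKM at 0 h, 24 h and 48 h, OPTN of 6, 5.35 and 9.83 FPKM, and HMGN2 of 153, 158 and 108 FPKM.

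The rest of the pathway was read from a list of 58 further genes, grouped by role, of which 49 were tested. At 48 h against 0 h, 9 rose, 3 fell and 37 were not called, or 24.5% called beside 28.5% of all genes. Of all genes, 13.3% were higher and 15.2% lower in that comparison. The median log2 fold change of the 49 was 0.03. At 48 h against 24 h, 11 rose and 5 fell, or 32.7% beside 32.3% of all genes, with 16% of all genes higher and 16.3% lower. At 24 h against 0 h 0 of the 49 were called by limma, beside 0.00732% of all genes. In that comparison 5 had an unadjusted p under 0.05, beside 7.43% of all genes. The count of 12 at 48 h against 0 h fell to 7 without the third control library, without the second 48 h library or without a filter. The 12 called genes are DLL1, given above, and the 11 named below.

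Of 7 tested cleavage genes 1 rose, or 14.3% called beside 28.5% of all genes. FURIN, the protease that cuts the receptor on its way to the surface, stood at 19.1 ± 0.879 FPKM at 48 h and 14.5 ± 1.1 FPKM in control (log2 fold change 0.37 ± 0.07, limma, adjusted p = 0.006). Named after their values were seen, the sheddase genes ADAM10 (0.03 ± 0.05, adjusted p = 0.679) and ADAM17 (0 ± 0.08, adjusted p = 0.996) were not called. Of 4 tested glycosyltransferases 1 was called, or 25%. This gene, POGLUT1, which adds glucose to the receptor's EGF repeats, fell by 0.24 on the log2 scale (adjusted p = 0.00763), with means of 3.26 FPKM at 48 h and 4.05 FPKM in control. The Fringe gene LFNG, chosen after its values were seen, was called lower at 48 h against 24 h (-0.55 ± 0.11, adjusted p = 0.00514), on 45 to 123 fragments, and not against 0 h (adjusted p = 0.0727).

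Of 9 tested genes of receptor turnover 2 rose, or 22.2% called beside 28.5% of all genes, with 13.3% of all genes higher. NUMB, an endocytic adaptor that restrains Notch, stood at 24.9 ± 0.775 FPKM at 48 h and 18.5 ± 0.462 FPKM in control (log2 fold change 0.41 ± 0.04, limma, adjusted p = 0.000233). DTX4, a Deltex ubiquitin ligase, stood at 4.81 ± 0.129 FPKM at 48 h and 3.23 ± 0.126 FPKM in control (0.46 ± 0.05, adjusted p = 0.000292). Of 3 tested genes of ligand endocytosis 1 was called, or 33.3%: the ubiquitin ligase gene NEURL1B rose by 0.34 on the log2 scale (adjusted p = 0.0276). That call ended without the first or the third control library or any 1 of the 48 h libraries (adjusted p 0.0546 to 0.0917).

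Of 7 tested coactivator genes 2 rose and 1 fell, or 42.9% called beside 28.5% of all genes, of which 13.3% were higher and 15.2% lower. The Mastermind genes MAML2 (log2 fold change 0.24 ± 0.07, limma, adjusted p = 0.0353) and MAML3 (0.31 ± 0.10, adjusted p = 0.0447) rose, and the acetyltransferase gene KAT2B fell (-0.20 ± 0.06, adjusted p = 0.0469). The MAML2 and MAML3 calls ended without any 1 of the 6 control and 48 h libraries, with adjusted p up to 0.116 and 0.13, and the MAML3 call also without the first 24 h library. The KAT2B call ended in 12 of 17 alternatives (adjusted p from 0.0507 to 0.155), among them leaving out any 1 library but the third at 24 h. Of 11 tested corepressor genes 2 rose and 1 fell, or 27.3% called beside the same 28.5%. RITA1, which carries RBPJ out of the nucleus, stood at 6.1 ± 0.275 FPKM at 48 h and 8.32 ± 0.418 FPKM in control (-0.39 ± 0.05, adjusted p = 0.00108). CTBP2 rose by 0.22 on the log2 scale (adjusted p = 0.00445), a call that ended after the correction for gene length (0.0857). L3MBTL3, which joins RBPJ at repressed genes, rose by 0.22 on the log2 scale (adjusted p = 0.0248). That call ended without the third control library or without the second or the third 48 h library (adjusted p up to 0.0801). Of the other HES and HEY genes, 5 were tested and none was called at any time, with HES4, named after its values were seen, at 6.48 to 9.41 FPKM over the 9 libraries.

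**Figure D4:**
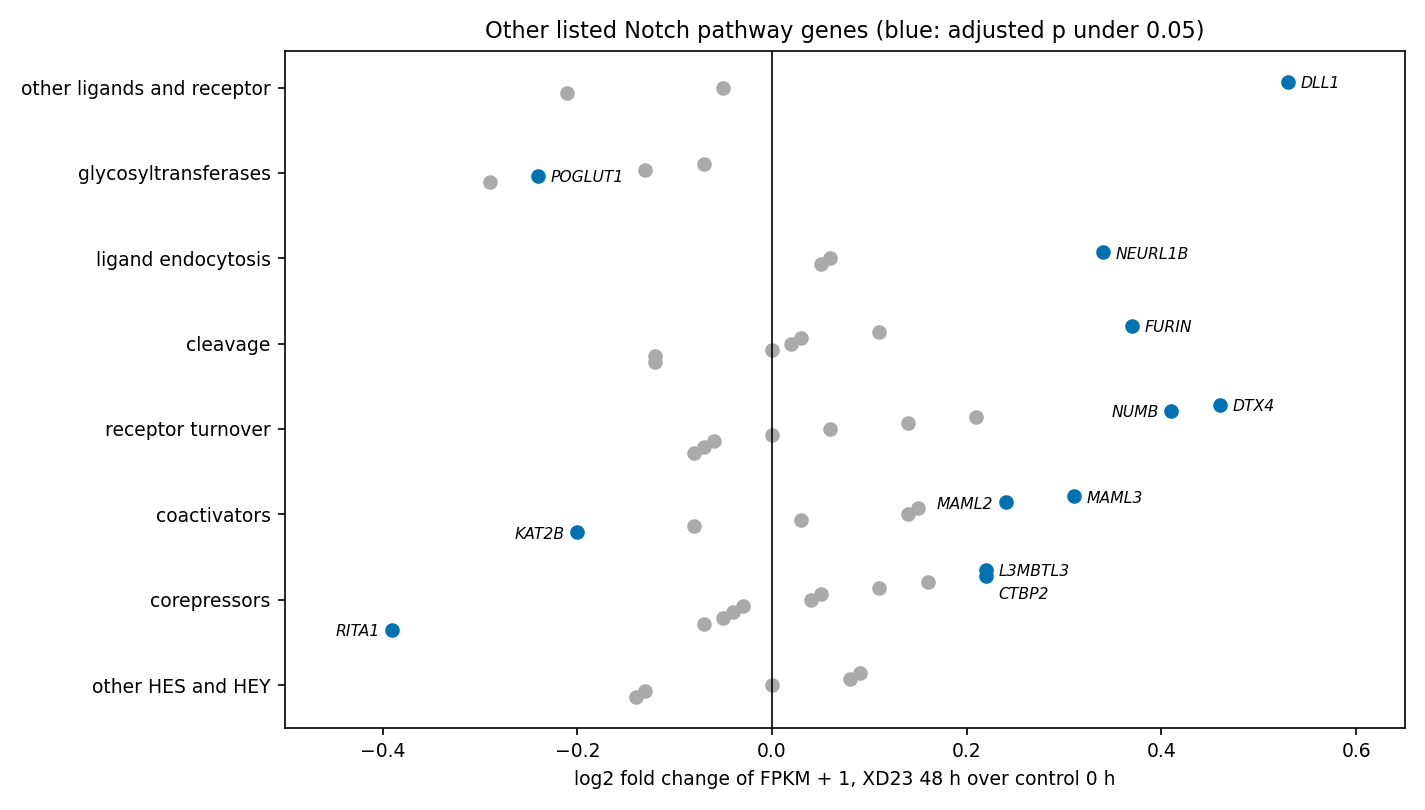
Log2 fold change of FPKM + 1 at XD23 48 h over control 0 h for the 49 tested genes of the listed Notch pathway, 1 point a gene, grouped by role down the page. The 12 called genes are blue and named, 9 to the right of 0 and 3 to the left, and the 37 others are grey.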

How the data were processed

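Gene levels of 9 libraries (3 a group) were read from the FPKM table that the authors deposited, with replicates kept apart. The submitters' processing notes list HISAT2, featureCounts, Subread, DESeq2 and hg38; no version, strand setting or annotation is given in the sources used here. Without a stated strand setting, reads of antisense genes cannot be told apart. Overlapping genes in the table, beside JAG1 and NOTCH1, were at most 0.113 FPKM. Overlaps were searched only within the GENCODE 29 span of each Notch gene. The fragment numbers of NRARP and HEY1 rest on lengths of 2641 and 5487 bases, longer than these spans. For these genes, overlaps beyond the spans were not searched. Identifiers were matched to symbols, and positions come from GENCODE 29 (GRCh38).

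Library totals were recovered from the steps of the FPKM. The exon length in GENCODE gave whole fragments, within 0.001 of a fragment, for 58.8% of the genes with a length, JAG1 among them. For the other Notch genes the smallest length giving whole fragments in all 9 libraries was used, so their fragment numbers rest on that choice.

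Genes with at least 1 FPKM in at least 3 libraries (13657) were fitted on log2(FPKM + 1) with limma 3.58.1 in R 4.3.3 (1 mean per group, eBayes with trend, 6 residual degrees of freedom). Two-sided p-values were adjusted by the Benjamini-Hochberg method across all genes in the fit. The script was tested on simulated data. The genes and lists were chosen with earlier results of these data known. 1 gene was taken off the list of further pathway genes after its values were seen and is not reported here. All 10 Notch genes are named. From each list of further pathway genes up to 3 called at 48 h against 0 h were named, by size of change; the other genes named were picked after their values were seen. Nearest profiles are given for the 3 Notch genes with the largest change. The marker genes CD3E, HBB and CDH1 were looked up by symbol, had no match and have no values here. Alternatives were a pseudocount of 0.1, no filter, a filter of 2 FPKM, median-of-ratios scaling, quantile normalization, fits to only 2 groups, a replicate block and leaving out each library. A correction for gene length was added after seeing the data.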

Additional observations from a re-analysis of the deposited data

Results flagged for a closer look

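For 4 Notch genes the change after 48 h differed from that after 24 h, by the direct test of 48 h against 24 h in limma. The control libraries are shared by both changes and drop out of this difference. The log2 difference was 0.74 for JAG1, 0.80 for HES1, -0.65 for NRARP and 0.14 for RBPJ, with adjusted p of 0.000186, 1.48e-05, 0.00132 and 0.0279. All 3 libraries at 48 h lay on 1 side of all 3 at 24 h for each of these genes. This adds little, because the genes were called in the same comparison. Of all genes tested, 32.3% were called in it and 46.1% had groups that did not overlap. The RBPJ call was lost in 5 of 17 alternatives.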

How the results depend on the processing

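The calls of JAG1, HES1 and NRARP at 48 h kept their direction and their side of the threshold in all 17 alternatives, with log2 fold changes against 0 h of 0.60 to 0.75, 0.61 to 0.72 and -0.72 to -0.45. The RBPJ call at 48 h against 24 h ended in 5 alternatives (adjusted p up to 0.273), 1 of them the fit to only these groups (0.0668); the cause was not tested. Leaving out 1 library at a time gave 3 to 4 called Notch genes at 48 h against 0 h and 3 to 5 against 24 h. For all genes it gave 2584 to 5132 calls at 48 h against 0 h, with 2584 without the second 48 h library and 5132 without the third 24 h library, and 0 to 2 at 24 h against 0 h. For the further pathway genes at 48 h against 0 h it gave 7 to 13, with 7 without the third control or the second 48 h library, and no filter also gave 7. The 1 call over all genes at 24 h against 0 h was not among the 3 calls with no filter. It was among the 4 calls with quantile normalization. There were 0 calls with the fit to the 2 groups, the replicate block or the gene length correction. Replicate numbers are shared between groups. Of 9 same-numbered pairs 2 had deviations correlated over 0.1, both at 48 h against 24 h (0.12 and 0.24). In each of 18 cases a library was set against the 3 of another group, and 7 were best with their own number. These correlations cannot show whether same-numbered libraries were handled together, and the labels do not say. With the replicate block all genes called were 3733 at 48 h against 0 h and 4344 against 24 h, and NOTCH2 was called at 48 h against 24 h (0.26, adjusted p = 0.0446). Depth limits JAG2, NOTCH3 and NRARP most. With a filter of 2 FPKM, NOTCH1 had no value.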

Other observations

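HES2, a further member of the HES family, lay below the filter and was looked at after its values were seen. It stood at 0.588, 0.546 and 0.575 FPKM in control, at 0.731, 0.478 and 0.565 FPKM at 24 h, and at 0.836, 0.888 and 1.09 FPKM at 48 h. The 48 h libraries lay above the other 6, on 56 to 120 fragments per library. Of all genes tested, 50.4% had groups that did not overlap at 48 h against 0 h and 46.1% at 48 h against 24 h. HES2 was not tested in the filtered fit. With no filter, limma did not call it at 48 h against 0 h or at 48 h against 24 h.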
